A study of Mus musculus with 11 samples.

Results

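Krüppel-like factors (KLFs) are described here in mouse neuroblastomas, as 10 named genes of a deposited expression table: Klf2, Klf3, Klf4, Klf6, Klf7, Klf9, Klf10, Klf11, Klf13 and Klf16. They were taken by gene symbol, are 10 of the 24411 genes in the table and 10 of its 17 KLF genes, and all 10 passed the filter on low values. Klf4 passed it only through treated libraries. The tumours arose in mice homozygous for the Th-MYCN transgene, in which the tyrosine hydroxylase promoter drives MYCN, so every group, vehicle included, carried the transgene. When a tumour reached 5 mm, the mouse was given 1 dose of vehicle intraperitoneally (3 mice), CBL0137 at 40 mg/kg intravenously (3 mice), panobinostat at 5 mg/kg intraperitoneally (2 mice analysed here, replicates 1 and 3) or both drugs (3 mice), and the tumour was taken 16 h later. Panobinostat replicate 2 was not analysed here. CBL0137 is a curaxin, a DNA-binding compound that traps the histone chaperone FACT on chromatin, and panobinostat inhibits histone deacetylases. The comparisons ask how each drug and the pair changed the tumours against vehicle, and how the pair differed from each drug.

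KLFs are transcription factors whose C-terminal zinc fingers bind GC-rich and CACCC-type DNA, and they share these sites with the SP factors. Their N-terminal parts differ: Klf2, Klf4, Klf6 and Klf7 are mostly activators, Klf3 is a repressor that recruits CtBP, and Klf9, Klf10, Klf11, Klf13 and Klf16 bind the Sin3 corepressor, which carries histone deacetylases. Several are fast-responding genes, induced by blood flow, injury, growth factors or steroid hormones. In neurons, family members are known for promoting or restraining axon growth.

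Levels are in TPM, a length-corrected transcript unit. They sum to a fixed total in each library. Sequencing depth cannot be read from them and is unknown. All 15 sympathoadrenal marker genes were above 0 in all 11 libraries, with a summed level of 1350 to 1549 TPM in vehicle, 1938 to 2373 TPM after CBL0137, 1194 to 1412 TPM after panobinostat and 875 to 1846 TPM after the combination. The highest of these combination sums was in replicate 2, which also held adrenal cortex markers. Single genes differed: 3 rose and 6 fell after the combination against vehicle, where 35.9% of all genes rose and 30.1% fell (limma, adjusted p under 0.05). These are whole tumours, and markers of other cells moved with treatment. The summed endothelial markers (17 genes) were 64.2 to 107 TPM in vehicle, 138 to 352 TPM after CBL0137, 349 to 407 TPM after panobinostat and 654 to 1255 TPM after the combination. The summed macrophage and monocyte markers (21 genes) were 966 to 1201, 2122 to 4293, 5289 to 6696 and 8827 to 12648 TPM in the same order of groups, and the fibroblast and pericyte markers (16 genes) 546 to 865, 1245 to 2947, 5135 to 6355 and 8783 to 9202 TPM. No gene of these 3 lists was at 0 in any treated library. Summed fat markers (6 genes) were 175 to 453, 376 to 1071, 1414 to 2708 and 1890 to 5696 TPM in the same order. Summed red blood cell markers (8 genes) were 757 to 5855, 1422 to 15306, 9507 to 15216 and 9606 to 15455 TPM. Those of T cells (14 genes) were 10.1 to 12.2, 23.6 to 183, 37.91 to 40.05 and 110 to 264 TPM. In such samples, a gene's higher level per cell and a larger share of cells that express it cannot be told apart, and the part of these cells in the KLF results was not tested. Single libraries also held markers of neighbouring tissue: kidney in vehicle replicate 2 (summed 449 TPM), B cells in CBL0137 replicate 3 (174 TPM), skeletal muscle in panobinostat replicate 3 (10174 TPM), combination replicate 1 (776 TPM) and CBL0137 replicate 2 (629 TPM), and adrenal cortex in combination replicate 2 (5326 TPM).

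In vehicle tumours the 10 genes formed 4 tiers. Klf7 (19.2 ± 6.73 TPM, SD, n = 3 mice), Klf16 (17.7 ± 2.22), Klf6 (16.7 ± 3.36), Klf11 (16.7 ± 4.38) and Klf13 (15.5 ± 3.39) had neighbouring levels whose libraries overlapped. Klf10 (9.45 ± 1.62 TPM) and Klf9 (7.64 ± 0.916 TPM) overlapped each other and lay below them. Klf2 (1.75 ± 0.710 TPM) and Klf3 (1.51 ± 0.869 TPM) came next and overlapped, and Klf4 was lowest at 0.753 ± 0.116 TPM. The summed level of all 10 was 107 ± 21.6 TPM.

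The order was different after the combination. The summed level was 236 ± 17.2 TPM (220 to 254 TPM over 3 mice), against 90.0 to 131 TPM in vehicle, 102 to 144 TPM after CBL0137 and 173 to 183 TPM after panobinostat. Klf6 stood alone at the top with 76.7 ± 6.71 TPM and Klf10 alone in the next place with 38.8 ± 11.1 TPM. Klf13, Klf3, Klf2, Klf11, Klf9 and Klf7 followed between 19.6 and 15.2 TPM, each overlapping the next, so Klf2 and Klf3 now overlapped the level of Klf11. Klf6 made up 15.6 ± 0.0188% of the summed KLF level in vehicle and 32.5 ± 1.40% after the combination, while Klf16 went from 16.8 ± 2.36% to 3.48 ± 1.71% and Klf7 from 17.7 ± 2.68% to 6.52 ± 2.13% (SD, n = 3 each).

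**Figure D1:**
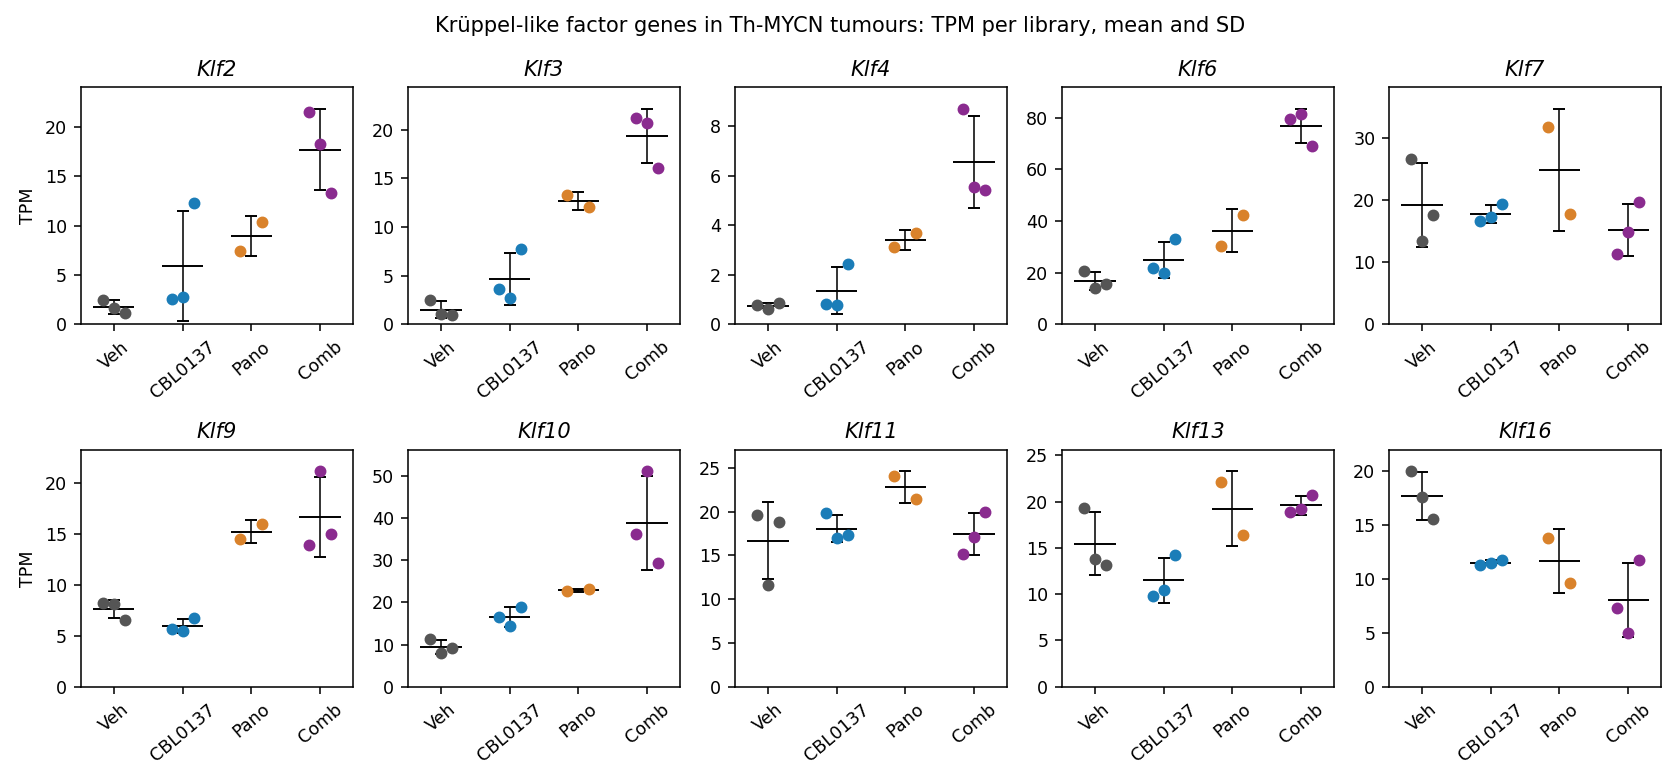
Each panel shows 1 KLF gene, with 1 point per library, in TPM on a linear axis that starts at 0; the bar and whiskers are the mean and SD of vehicle (Veh, n = 3), CBL0137 (n = 3), panobinostat (Pano, n = 2) and combination (Comb, n = 3) tumours. All 3 combination libraries lie above all 3 vehicle libraries for Klf2, Klf3, Klf4, Klf6, Klf9 and Klf10, and below them for Klf16.

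Against vehicle, 6 of the 10 genes rose after panobinostat, namely Klf2, Klf3, Klf4, Klf6, Klf9 and Klf10, and 0 fell. Rises were common in this comparison, since 25.5% of the 15497 genes tested rose (limma, adjusted p under 0.05). The median log2 difference of the 10 was 0.99, against 0.10 over all genes. Under quantile normalization the count was 3 that rose (Klf3, Klf6 and Klf10) and 1 that fell (Klf16). Rises then made up 38.2% of the calls over all genes, against 60.2% without that normalization. Leaving out panobinostat replicate 3 left 1 library in that group, and the differences of Klf2, Klf4 and Klf6 were then 1.66, 1.24 and 0.84. After the combination, Klf2, Klf3, Klf4, Klf6, Klf9 and Klf10 rose and Klf16 fell, where 35.9% of all genes rose and 30.1% fell, with a median of 1.46 against 0.08 over all genes. CBL0137 alone gave no call among the 10 by limma, where 6.12% of all genes were called in either direction; 5 of the 10 had an unadjusted p under 0.05 (Klf2, Klf3, Klf6 and Klf10 with higher means, Klf16 with a lower one), and the median was 0.24 against -0.01. The 3 comparisons share the vehicle libraries. No gene was called for the interaction, which asks whether the combination differed from the sum of the 2 drugs on the log2(TPM + 1) scale (0% of all genes by limma; 0 of the 10 KLF genes at an unadjusted p under 0.05), and the KLF values ranged from -0.59 (Klf7) to 0.54 (Klf6).

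**Figure D2:**
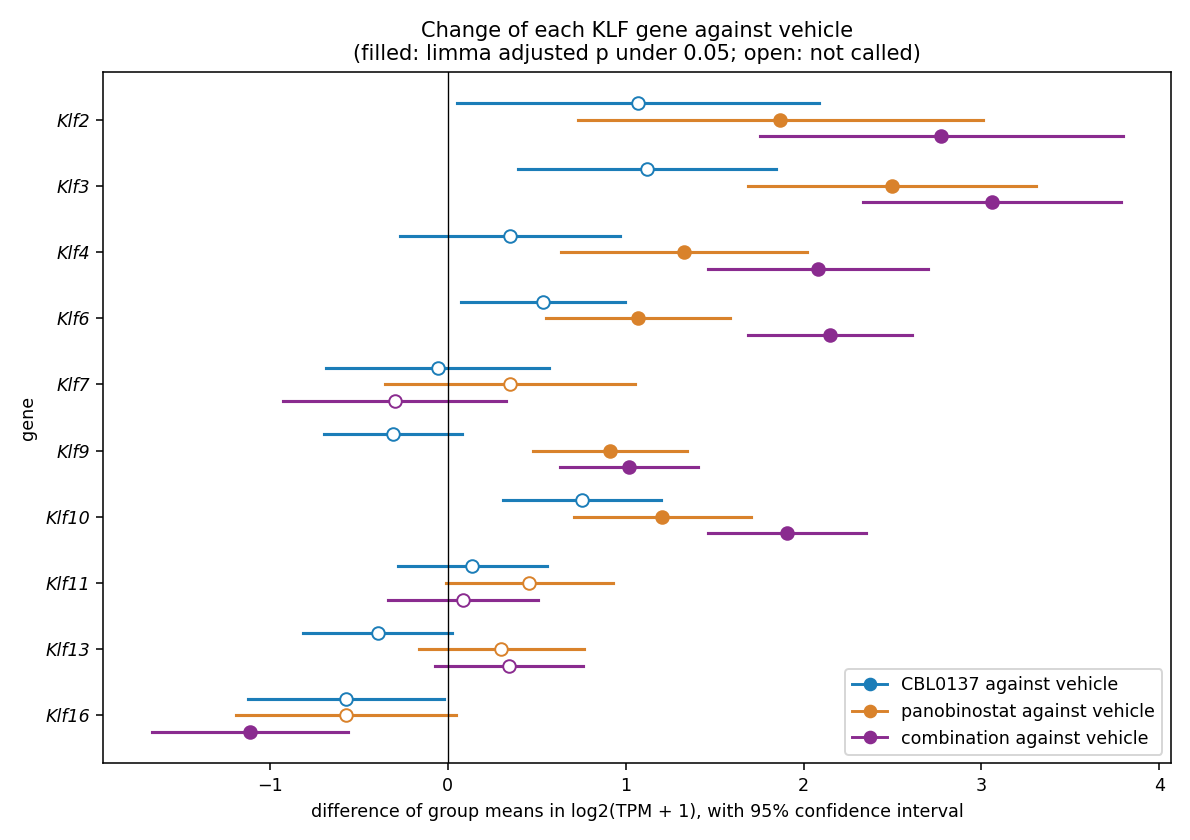
Points show, for each KLF gene, the difference of a treated group from vehicle in log2(TPM + 1) and lines its 95% confidence interval from limma; filled points have an adjusted p under 0.05 over all genes. Klf2, Klf3, Klf4, Klf6, Klf9 and Klf10 have filled panobinostat and combination points to the right of 0, Klf16 has a filled combination point at -1.11, and no CBL0137 point is filled.

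The stretches just before the transcription start are shown for 4 of the 6 genes that rose after both panobinostat and the combination. They are from RefSeq's promoter table (GRCm38.p6, 250 bases, 5′ to 3′ on the gene's strand). Capitals mark the motifs found. Klf2 is at chr8:72318812-72319061 (plus strand), Klf4 at chr4:55532476-55532725 (minus), Klf6 at chr13:5861239-5861488 (plus) and Klf9 at chr19:23140976-23141225 (plus).
Klf2: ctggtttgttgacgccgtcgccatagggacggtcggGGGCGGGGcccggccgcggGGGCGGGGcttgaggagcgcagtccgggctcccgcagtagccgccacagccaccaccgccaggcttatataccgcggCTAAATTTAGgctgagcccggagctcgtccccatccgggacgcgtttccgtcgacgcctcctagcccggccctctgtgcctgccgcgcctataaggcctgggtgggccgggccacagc
Klf4: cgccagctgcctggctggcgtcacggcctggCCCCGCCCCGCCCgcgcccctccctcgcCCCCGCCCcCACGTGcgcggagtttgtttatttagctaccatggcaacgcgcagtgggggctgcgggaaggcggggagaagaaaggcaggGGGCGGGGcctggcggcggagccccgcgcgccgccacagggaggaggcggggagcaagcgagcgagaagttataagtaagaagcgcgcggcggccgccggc
Klf6: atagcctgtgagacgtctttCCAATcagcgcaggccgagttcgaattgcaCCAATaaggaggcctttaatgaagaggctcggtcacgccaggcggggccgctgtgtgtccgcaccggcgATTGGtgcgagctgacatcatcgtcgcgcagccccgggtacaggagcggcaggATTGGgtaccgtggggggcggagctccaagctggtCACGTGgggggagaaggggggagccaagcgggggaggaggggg
Klf9: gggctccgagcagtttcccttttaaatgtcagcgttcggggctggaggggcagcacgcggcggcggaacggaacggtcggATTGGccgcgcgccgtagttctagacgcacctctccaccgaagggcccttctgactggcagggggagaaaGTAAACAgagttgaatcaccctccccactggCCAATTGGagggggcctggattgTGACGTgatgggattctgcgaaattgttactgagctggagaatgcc

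The motifs were searched on both strands of the table's whole windows (250 bases before to 50 after the start), and 8 of the 10 KLF genes matched an entry. The GC box CCCCGCCC, the kind of site that SP factors and KLFs bind, was in 5 of the 8 windows (Klf2, Klf3, Klf4, Klf11 and Klf13) and in 17.6% of all 32851 windows. It therefore occurred both in genes that rose and in genes that were not called against vehicle. This exact sequence was not in the windows of Klf6 and Klf9, which rose. Shorter or variant forms of the GC box were not searched for, so such sites may still be present there. The MEF2 consensus was found in Klf2 only, starting 118 bases before the start (3.19% of all windows). Klf6 held 4 copies of the CCAAT box CCAAT, and Klf9 held 3, of which 2 overlap on opposite strands (any copy in 4 of the 8 KLF windows and 37.4% of all). Klf9 also held the cAMP response core TGACGT (7.51% of all windows; also Klf13) and the FOXO element TGTTTAC (3.65%). The E-box CACGTG, a site that MYC family proteins bind, was in Klf4, Klf6 and Klf11 and in 7.15% of all windows. In Klf4, 2 of the 4 GC boxes overlap. The full cAMP response element TGACGTCA (1.79% of all), the CACCC element CCACACCC (3.56%), the TATA box TATAAA (13.6%) and the SRF CArG box (1.63%) were in none of the 8 KLF windows. Their GC content was 58.3 to 77.7%, against a median of 52.7% over all windows.

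Among the activators, Klf2 is best known in endothelium, where laminar flow induces it, and in resting T cells, where it maintains the receptor gene S1pr1. Its level was 2.50, 1.65 and 1.09 TPM in vehicle replicates 1 to 3, while panobinostat tumours reached 7.47 and 10.4 TPM. Both drugs together gave 21.5, 18.3 and 13.3 TPM, so neither treated group overlapped vehicle. Combination replicate 1, the highest in Klf2, also held the highest summed T cell markers of the 11 libraries (264 TPM). Its summed endothelial markers were the lowest of the combination group (654 TPM). The part of such cells in its Klf2 level was not tested. The log2(TPM + 1) difference from vehicle was 1.87 ± 0.51 (SE; adjusted p = 0.0152, limma) after panobinostat and 2.77 ± 0.46 (adjusted p = 0.000408) after the combination, a 10.1-fold ratio of mean TPM. The panobinostat call was lost without vehicle replicate 3 (1.69, adjusted p = 0.0506), without panobinostat replicate 3 (1.66, 0.0972) and under quantile normalization (1.11, 0.0684). The combination difference depended on the scale, at 1.74 with a pseudocount of 5 and 2.13 under quantile normalization, and was called in both.

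After CBL0137, Klf2 had 2.54 and 2.79 TPM in replicates 1 and 2 and 12.3 TPM in replicate 3. Replicate 3 was thus apart from the other 2, and it was also highest of the 3 in summed B cell (174 against 6.01 and 30.4 TPM), T cell (183 against 23.6 and 48.7 TPM) and endothelial markers (352 against 198 and 138 TPM). Macrophage and monocyte (4293 against 2335 and 2122 TPM) and fibroblast and pericyte markers (2947 against 1453 and 1245 TPM) were highest there too. So were neutrophil (76.2 against 39.4 and 32.8 TPM), fat (1071 against 376 and 1030 TPM) and kidney markers (18.3 against 3.43 and 4.44 TPM). Sympathoadrenal, Schwann cell, adrenal cortex, skeletal muscle and red blood cell markers were not. The log2 difference was 1.07 ± 0.46 (adjusted p = 0.187, limma) with this library and 0.45 (adjusted p = 0.466) without it; the part of those cells in its Klf2 level was not tested.

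Klf4, known as a pluripotency factor and for its roles in epithelium, monocytes and endothelium, was the least abundant of the 10 in vehicle (0.770, 0.630 and 0.860 TPM). With all vehicle libraries under 1 TPM, Klf4 entered the test only through the treated libraries in which it was higher. It reached 3.12 and 3.68 TPM after panobinostat and 8.70, 5.53 and 5.41 TPM after the combination, with no overlap with vehicle. It rose by 1.33 ± 0.31 (SE, log2; adjusted p = 0.00735, limma) after panobinostat and by 2.08 ± 0.28 (adjusted p = 0.000110) after the combination. After CBL0137, Klf4 had 0.820 and 0.780 TPM in replicates 1 and 2, within the vehicle range, and 2.44 TPM in replicate 3. The panobinostat call was lost without panobinostat replicate 3 (1.24, adjusted p = 0.0527) and under quantile normalization (0.46, adjusted p = 0.213). The combination difference was 2.94 with a pseudocount of 0.1, 0.99 with one of 5 and 1.30 under quantile normalization, called each time.

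Klf6, a widely expressed factor induced by tissue injury and studied as a tumour suppressor, had the highest mean of the 10 in each treated group, although its panobinostat libraries overlapped those of Klf7. It was measured at 20.5, 14.1 and 15.5 TPM in vehicle, 21.8, 20.0 and 33.0 TPM after CBL0137, 30.3 and 42.1 TPM after panobinostat and 79.5, 81.5 and 69.0 TPM after the combination. The combination libraries lay above all 8 others. Its rise was 1.07 ± 0.23 (SE, log2; adjusted p = 0.00513, limma) after panobinostat and 2.15 ± 0.21 (adjusted p = 1.90e-05) after the combination, a 4.59-fold ratio of means. The panobinostat call was lost without panobinostat replicate 3 (0.84, adjusted p = 0.0557).

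Klf7, the closest relative of Klf6 and a factor for neurite outgrowth and sensory neuron survival, was not called in any comparison. Its libraries overlapped in all groups, at 13.4 to 26.6 TPM in vehicle, 16.6 to 19.4 TPM after CBL0137, 17.8 and 31.8 TPM after panobinostat and 11.3 to 19.6 TPM after the combination. The difference from vehicle after the combination was -0.30, with a 95% confidence interval of -0.93 to 0.33 (log2), which holds changes in either direction. Within each library, the ratio of Klf6 to Klf7 TPM was 0.770, 1.05 and 0.878 in vehicle and 7.05, 5.51 and 3.52 after the combination. The closest pair of the family thus went from near parity to a clear excess of Klf6 in all 3 combination mice.

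**Figure D3:**
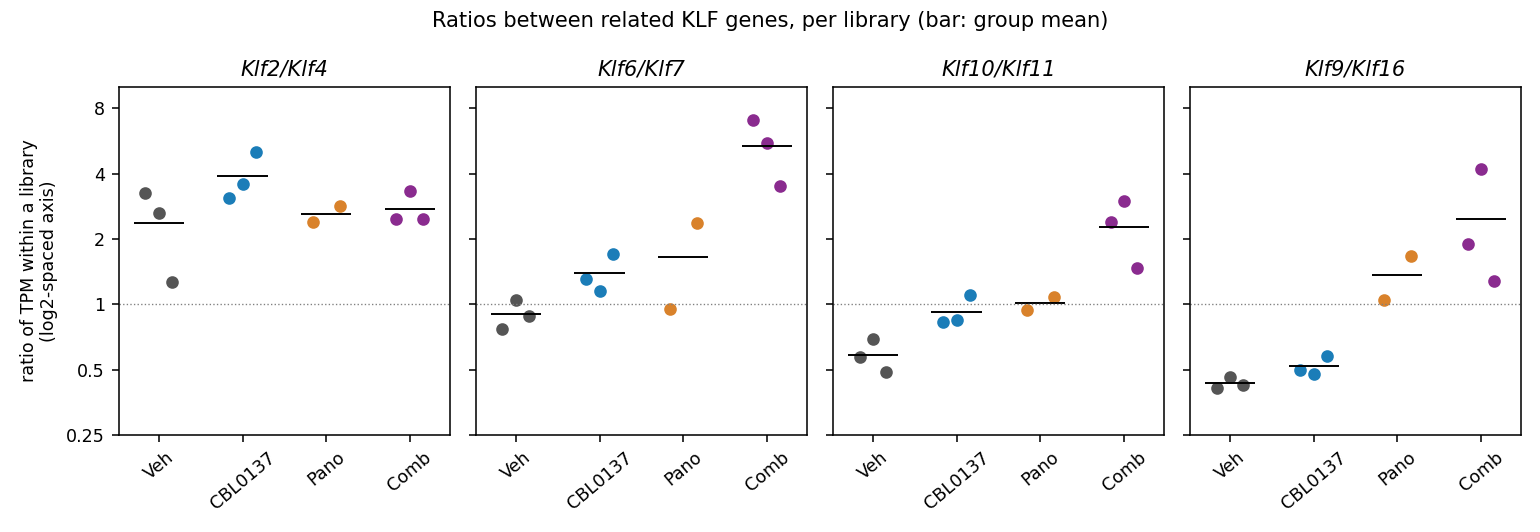
Points show the TPM ratio of 2 related KLF genes within each library, on a log2-spaced axis, with bars for group means. Combination libraries lie above all vehicle libraries for Klf6/Klf7, Klf10/Klf11 and Klf9/Klf16, while the groups overlap for Klf2/Klf4.

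Klf10/Klf11 was 0.582 ± 0.101 in vehicle and 2.28 ± 0.761 after the combination, and Klf9/Klf16 was 0.432 ± 0.0250 and 2.46 ± 1.55 (SD, n = 3 each). Klf2/Klf4 was 2.38 ± 1.01 in vehicle and 2.75 ± 0.487 after the combination, and its libraries overlapped. An exact permutation test (2-sided) of 3 against 3 libraries can give no p below 0.1, and one of 2 against 3 none below 0.2, so none of the 18 ratio comparisons with vehicle could pass the threshold.

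Klf3, the CtBP-recruiting repressor known from red cell, B cell and fat cell development, had the largest fitted difference from vehicle of the 10 genes, both after panobinostat and after the combination. Vehicle replicates 1 to 3 held 2.51, 1.08 and 0.940 TPM, and those of CBL0137 3.57, 2.67 and 7.69 TPM. Panobinostat tumours held 13.3 and 12.1 TPM, and the combination gave 21.2, 20.7 and 16.1 TPM. The 4 groups did not overlap with one another in this gene. Its rise was 2.50 ± 0.36 (SE, log2; adjusted p = 0.000951, limma) after panobinostat and 3.06 ± 0.33 (adjusted p = 2.99e-05) after the combination, a 12.8-fold ratio of means. Since Klf3 is low in vehicle, the latter value moved with the scale, to 3.71 with a pseudocount of 0.1, 1.90 with one of 5 and 2.45 under quantile normalization, and was called in all 3. After CBL0137 the difference was 1.12 ± 0.33 with an adjusted p of 0.0713, outside the threshold. Over 21 alternative fits that p ran from 0.0485 (without CBL0137 replicate 2) to 0.309, 3 were under the threshold, and without CBL0137 replicate 3, the library that stands apart, the difference was 0.76 (adjusted p = 0.208). A gene model on the opposite strand, Gm20033, overlaps Klf3 and is not a row of the table.

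Among the Sin3-binding genes, Klf10 and Klf11 are induced early by TGF-beta in many cells. Klf10 had 11.2, 8.01 and 9.13 TPM in vehicle replicates, whereas CBL0137 tumours had 16.4, 14.3 and 19.0 TPM. Levels were 22.7 and 23.1 TPM with panobinostat and 36.2, 51.0 and 29.4 TPM with both drugs. Its 4 groups did not overlap either, in the order vehicle, CBL0137, panobinostat and combination. Klf10 rose by 1.20 ± 0.22 (SE, log2; adjusted p = 0.00254, limma) after panobinostat and by 1.91 ± 0.20 (adjusted p = 2.79e-05) after the combination. The CBL0137 difference of 0.75 ± 0.20 had an adjusted p of 0.0548. Over 21 alternative fits it ran from 0.0242 (without combination replicate 2) to 0.188 (a difference of 0.66, without CBL0137 replicate 3), and 7 were under the threshold. Klf11 was not called in any comparison, with 11.6 to 19.6 TPM in vehicle, 17.0 to 19.8 TPM after CBL0137, 21.5 and 24.0 TPM after panobinostat and 15.2 to 20.0 TPM after the combination. Its panobinostat libraries were the 2 highest of the 11, at a difference of 0.46 ± 0.21 (adjusted p = 0.105).

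Klf9 is a hormone-responsive member, induced by glucocorticoids and thyroid hormone, and restrains axon growth. It was 8.25, 8.09 and 6.59 TPM in vehicle, 14.5 and 16.0 TPM after panobinostat and 13.9, 21.1 and 15.0 TPM after the combination. Its rise was of like size in both groups, 0.91 ± 0.19 (SE, log2; adjusted p = 0.00480, limma) after panobinostat and 1.02 ± 0.17 (adjusted p = 0.000522) after the combination. After CBL0137 it had 5.63, 5.49 and 6.79 TPM, a difference of -0.31 ± 0.17 (adjusted p = 0.307), so Klf9 was the only one of the 6 rising genes whose CBL0137 mean lay below the vehicle mean. Under quantile normalization the panobinostat difference was 0.50 with an adjusted p of 0.0584.

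Klf13, known as an activator of Ccl5 in T cells, was not called against vehicle. It was 13.2 to 19.3 TPM in vehicle, 9.82 to 14.2 TPM after CBL0137, 16.4 and 22.1 TPM after panobinostat and 18.9 to 20.8 TPM after the combination. It had a lower mean after CBL0137 (-0.39 ± 0.19, adjusted p = 0.229) and a higher one after the combination (0.34 ± 0.19, adjusted p = 0.131). The latter p ran from 0.0385 (0.51, without vehicle replicate 1) to 0.517 (0.10, under quantile normalization), and 1 of 21 alternative fits was under the threshold. The protein-coding gene E030018B13Rik overlaps Klf13 on the opposite strand, and the strand setting of the counting is not given in the sources used here.

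Klf16, known as a regulator of dopamine receptor genes, was the only member that fell. Vehicle tumours held 20.0, 17.6 and 15.6 TPM and CBL0137 tumours 11.3, 11.5 and 11.8 TPM. The panobinostat libraries held 13.8 and 9.61 TPM and the combination 7.33, 5.02 and 11.8 TPM. All 8 treated libraries lay below all 3 vehicle libraries. The fall passed the test for the combination (-1.11 ± 0.25, SE, log2; adjusted p = 0.00268, limma), a 2.20-fold lower mean. CBL0137 and panobinostat gave like values of -0.57 ± 0.25 (adjusted p = 0.192) and -0.57 ± 0.28 (adjusted p = 0.122). The panobinostat difference passed the threshold in 2 of 21 alternative fits, without combination replicate 3 (adjusted p = 0.0435) and under quantile normalization (-0.87, adjusted p = 0.0381), and its adjusted p reached 0.495 (-0.33) without panobinostat replicate 3.

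Between the treated groups, the combination stood above CBL0137 in 7 of the 10 genes: Klf2, Klf3, Klf4, Klf6, Klf9, Klf10 and Klf13. In this comparison 33.2% of all genes rose, and the KLF median was 1.24 against 0.12 over all genes. On the log2(TPM + 1) scale the largest of the 7 differences was that of Klf3 (1.94 ± 0.33, SE; adjusted p = 0.000880, limma), followed by Klf4 (1.73 ± 0.28, adjusted p = 0.000732), Klf2 (1.71 ± 0.46, adjusted p = 0.00948) and Klf6 (1.61 ± 0.21, adjusted p = 0.000321). As ratios of mean TPM the order was Klf4 (4.86-fold), Klf3 (4.17-fold), Klf6 (3.08-fold) and Klf2 (3.01-fold). Without CBL0137 replicate 3 the Klf2 difference was 2.33 (adjusted p = 0.000147). Klf9 was 1.33 ± 0.17 higher (adjusted p = 0.000337), Klf10 1.15 ± 0.20 (adjusted p = 0.00104) and Klf13 0.74 ± 0.19 (adjusted p = 0.00720). Klf16 was not called here (-0.54 ± 0.25, adjusted p = 0.0871); without combination replicate 3 it was -0.82 with an adjusted p of 0.00676, under TMM factors -0.69 (0.0319) and under quantile normalization -0.91 (0.0130), while the other 18 alternative fits did not call it, with an adjusted p of up to 0.382.

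The combination differed from panobinostat in 1 gene, Klf6, where 6.24% of all genes rose. Klf6 was 1.08 ± 0.23 higher (SE, log2; adjusted p = 0.0249, limma), a 2.12-fold ratio of means. That call rested on several libraries, since the adjusted p was 0.170 without panobinostat replicate 1, 0.0607 without combination replicate 1 and 0.0682 without combination replicate 2. Klf10 (0.70 ± 0.22, adjusted p = 0.0666) and Klf4 (0.75 ± 0.31, adjusted p = 0.122) had higher means after the combination without passing the test. Without combination replicate 3, Klf10 (0.88, adjusted p = 0.0235) and Klf16 (-0.82, adjusted p = 0.0311) passed it; without panobinostat replicate 1 their adjusted p was 0.248 and 0.637. The 95% confidence intervals were wide, from -0.23 to 2.04 for Klf2 and from -0.33 to 0.54 for Klf9, with 2 panobinostat libraries. For Klf2 the interval was also wide in the combination against vehicle, with 3 libraries each, from 1.76 to 3.79.

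Panobinostat stood above CBL0137 in 3 genes, Klf3, Klf9 and Klf13, where 12.1% of all genes rose. Klf9 had the clearest separation, 14.5 and 16.0 TPM against 5.49 to 6.79 TPM, a difference of 1.22 ± 0.19 (SE, log2; adjusted p = 0.00926, limma). Klf3 differed by 1.38 ± 0.36 (adjusted p = 0.0294) and Klf13 by 0.70 ± 0.21 (adjusted p = 0.0445). These calls moved with single libraries. Without CBL0137 replicate 3, 6 KLF genes were called, and over all genes the calls in either direction went from 2935 to 4022. Leaving out a panobinostat library left 1 in that group. The difference of Klf3 was then 1.31 without replicate 1 and 1.44 without replicate 3, and that of Klf13 0.49 and 0.90. Without CBL0137 replicate 1 or 2, 1 KLF gene was called. Klf13 was also lost without vehicle replicate 2 (adjusted p = 0.0598) or 3 (0.0588) and without combination replicate 1 (0.0594) or 3 (0.0508). The difference of Klf9 had an adjusted p of 0.0674 without panobinostat replicate 3.

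The 6 genes compared next were those that rose after panobinostat and the combination. A high correlation across the 11 libraries was therefore largely set by that choice. Pearson's r of log2(TPM + 1) was 0.91 to 0.96 in the 10 pairs among Klf2, Klf3, Klf4, Klf6 and Klf10, and 0.76 to 0.84 between Klf9 and these 5. The points share their groups and the fixed TPM total. After subtracting each group's mean, r was 0.29 to 0.88 in the 10 pairs and 0.04 to 0.73 in the 5 pairs with Klf9. CBL0137 replicate 3 was the highest of its group in all 6 genes, and r without it was not computed. The genes that did not rise were linked to these and to one another as well. Klf13 had an r of 0.52 to 0.82 with the 6, and of 0.79 with Klf3 after subtracting group means. Klf16 had negative values with the 6, from -0.59 (Klf9) to -0.88 (Klf10). The value was 0.74 for Klf7 and Klf11 and 0.33 for Klf7 and Klf13, and 0.75 and 0.77 after subtracting group means. These correlations are descriptions of 11 libraries.

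Outside the family, the genes with the most similar pattern over the 11 libraries were taken by Pearson's r of log2(TPM + 1) among 11127 other genes averaging 5 TPM or more. These are the highest of many values and include the differences between groups. For these genes r after subtracting group means was not computed. For Klf2 the closest were the sialyltransferase gene St8sia4 (0.990), S1pr1 (0.986) and the transcription factor gene Ets1 (0.985), and for Klf3 Arhgap26 (0.992), Prrx1 (0.991) and Rrbp1 (0.991). S1pr1 is also in the list of Klf2 or Klf4 targets used below, and Ets1 is in the list of endothelial markers. Klf4 was closest to Wipf1 (0.992), Rab11fip5 (0.989) and Notch2 (0.987). Klf6 was closest to the small GTPase gene Rap1b (0.996), Mcl1, which protects cells from apoptosis (0.993), and Uaca (0.992). Klf9 was closest to Amotl1 (0.983), Ggact (0.974) and Cdc42ep4 (0.972), and Klf10 to Optn (0.987), the endothelial gene Clec14a (0.987) and Leprot (0.986). The genes that did not rise had other neighbours: Chd5 (0.971), Maml3 (0.971) and Rimbp2 (0.959) for Klf7, and Agap3 (0.985), Mllt1 (0.983) and Wasf1 (0.979) for Klf16. Klf13 was closest to Nomo1 (0.966), Pitpnm2 (0.962) and Ptpn23 (0.961), and Klf11 had no gene above 0.897 (Magef1), followed by Phldb1 (0.857) and Zfp608 (0.850).

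**Figure D4:**
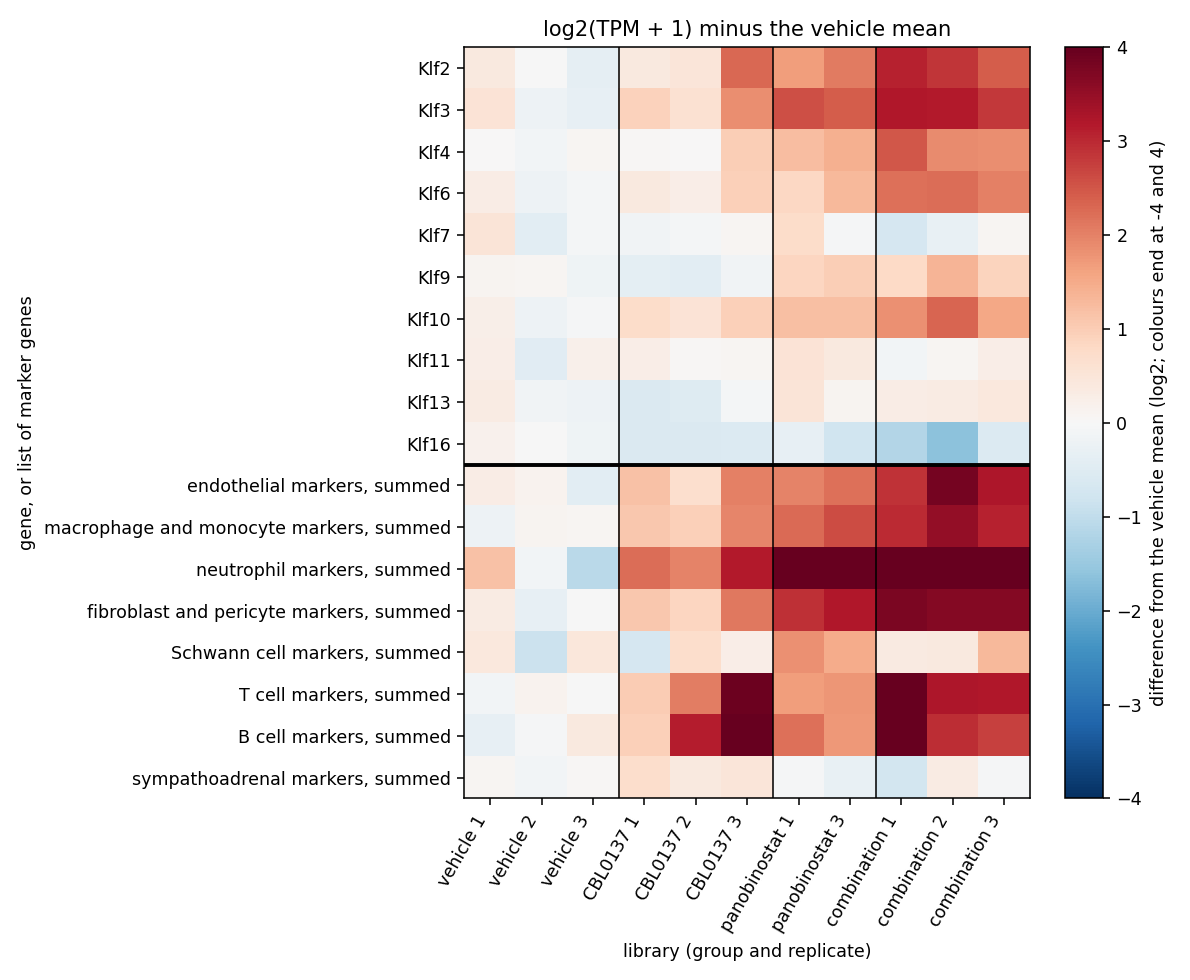
Colours show log2(TPM + 1) minus the vehicle mean for each KLF gene (upper block) and for the summed TPM of each marker list (lower block) in the 11 libraries, with colours ending at -4 and 4. Klf2, Klf3, Klf4, Klf6 and Klf10 are darkest in the combination columns, as are endothelial, macrophage, neutrophil and fibroblast markers, and CBL0137 replicate 3 stands out from its group in both blocks.

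Of the other 7 KLF genes of the table, Klf15 and Klf12 averaged 4.08 and 3.38 TPM in vehicle, above Klf2, Klf3 and Klf4. Klf5, an epithelial and smooth muscle factor, had 0.320 to 0.610 TPM in vehicle and 0.880 to 2.55 TPM after the combination. It rose by 0.84 ± 0.25 (SE, log2; adjusted p = 0.0131, limma), where 35.9% of all genes rose. Its vehicle and CBL0137 libraries were all under 1 TPM, so it entered the test only through panobinostat and combination libraries. Klf8, a CtBP-binding relative of Klf3, had 1.17 to 1.71 TPM after CBL0137 and 2.18 to 3.07 TPM after the combination (0.58 ± 0.21, adjusted p = 0.0349), and it was not called against vehicle. Klf12, likewise CtBP-binding, was not called in any comparison, with 1.99 to 4.53 TPM over all libraries. Klf15, a glucocorticoid-induced metabolic factor of muscle and liver, was not called either, and its highest values, 11.2 TPM in combination replicate 1 and 8.11 TPM in panobinostat replicate 3, were in the libraries with the highest summed skeletal muscle markers (776 and 10174 TPM). CBL0137 replicate 2 held 629 TPM of these markers. Klf15 averaged 3.31 TPM after CBL0137, under its vehicle mean, and the CBL0137 libraries all lay below those of panobinostat. Combination replicate 1 also had the highest summed fat markers of the 11 libraries (5696 TPM, against 1414 TPM in panobinostat replicate 3). The part of muscle or fat in the Klf15 values was not tested. Klf1, Klf14 and Klf17 stayed at or below 0.670 TPM and were not tested.

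Of 9 SP factor genes, whose proteins bind the same GC boxes, 4 were tested. After panobinostat 0 rose and 2 fell, where 25.5% of all genes rose and 16.9% fell. After the combination 1 rose and 2 fell, where 35.9% rose and 30.1% fell. With 4 genes, nothing is read from these counts about the SP factors as a class. Sp4, a neuron-rich member, fell by 0.52 ± 0.17 (SE, log2; adjusted p = 0.0326, limma) after panobinostat and by 1.21 ± 0.15 (adjusted p = 7.26e-05) after the combination, from 29.5, 21.2 and 29.5 TPM in vehicle to 11.9, 9.78 and 10.9 TPM. Sp3 fell by 0.31 ± 0.09 after panobinostat (adjusted p = 0.0148) and 0.19 ± 0.08 after the combination (adjusted p = 0.0493), and Sp1 rose by 0.34 ± 0.14 (adjusted p = 0.0495) after the combination. Sp2 was not called.

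The proteins through which KLFs repress were measured as a list of 8 genes, all tested. After panobinostat 1 rose and 3 fell, where 25.5% of all genes rose and 16.9% fell. After the combination 1 rose and 4 fell, where 35.9% rose and 30.1% fell, and the medians were -0.23 and -0.35 against 0.10 and 0.08 over all genes. Hdac2, a histone deacetylase of the Sin3 complex, fell by 0.83 ± 0.16 (SE, log2; adjusted p = 0.00265, limma) and by 1.39 ± 0.14 (adjusted p = 2.23e-05) in these 2 comparisons. Sap30, a Sin3 subunit, fell by 0.83 ± 0.14 and 0.79 ± 0.12, and Ctbp1, the partner of Klf3, fell by 0.65 ± 0.08 after the combination (adjusted p = 9.07e-05). Fhl3, a LIM protein that binds Klf3, rose by 2.53 ± 0.53 after panobinostat (adjusted p = 0.00462). Among 8 ubiquitin ligase and related genes that act on KLF proteins, 1 rose and 3 fell after panobinostat (25.5% and 16.9% of all genes) and 2 rose and 4 fell after the combination (35.9% and 30.1% of all genes). Fbxw7, a substrate receptor that targets Klf2 and other factors for degradation, fell by 0.86 ± 0.14 after panobinostat and by 1.38 ± 0.13 after the combination (adjusted p = 1.50e-05), and it also fell after CBL0137 (0.55 ± 0.13 lower, adjusted p = 0.0334). Wwp1, a ligase for Klf2, rose by 1.11 ± 0.18 and 1.36 ± 0.16 in the first 2 of these comparisons.

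Upstream of Klf2 and Klf4 in endothelium, the MEK5, ERK5 and MEF2 cascade with the CCM proteins that restrain it had 11 tested genes, of which 3 rose after panobinostat and 4 rose and 1 fell after the combination (medians 0.04 and 0.29). These rises are close to the 25.5% and 35.9% of all genes that rose. Those that rose in both comparisons were Mef2c (2.62 ± 0.44 after panobinostat and 2.93 ± 0.39 after the combination, SE, log2; adjusted p = 0.00159 and 0.000110, limma), Mef2a (0.60 ± 0.19 and 1.06 ± 0.17) and the endothelial receptor gene Heg1 (1.87 ± 0.31 and 2.10 ± 0.28). After the combination Map3k3, a kinase at the head of the cascade, rose as well (0.59 ± 0.11, adjusted p = 0.000997), and Mapk7, which encodes ERK5 itself, fell by 0.57 ± 0.17 (adjusted p = 0.0141). Of 16 endothelial and lymphocyte genes known as targets of Klf2 or Klf4, 15 rose after panobinostat, and 15 rose and 1 fell after the combination, with medians of 1.69 and 2.64, against medians of 0.10 and 0.08 over all genes, of which 25.5% rose after panobinostat and 35.9% rose and 30.1% fell after the combination. The gene that fell was the prostaglandin D synthase gene Ptgds (-1.17 ± 0.36, adjusted p = 0.0157). Among those that rose, Thbd (thrombomodulin, an anticoagulant receptor) rose by 2.35 ± 0.38 and 3.18 ± 0.34. Vcam1, which Klf2 is known to repress, rose as well, by 2.04 ± 0.33 and 3.15 ± 0.29, and so did Edn1, another repressed target, by 1.64 ± 0.25 after panobinostat (adjusted p = 0.00108). The endothelial markers rose in 17 of 17 genes in both comparisons (medians 1.82 and 2.87), and the target list holds 2 of them, Kdr and Tek; the part of more endothelial RNA in the target list was not tested.

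Of 19 tested genes of TGF-beta signalling, the pathway that induces Klf10 and Klf11, 14 rose and 1 fell after panobinostat, and 16 rose and 2 fell after the combination (medians 1.18 and 1.80). Over all genes 25.5% rose and 16.9% fell in the former comparison and 35.9% rose and 30.1% fell in the latter, with medians of 0.10 and 0.08. Id3 rose by 2.40 ± 0.25 and 3.46 ± 0.23 (SE, log2; adjusted p = 0.000439 and 4.70e-06, limma), the receptor gene Tgfbr2 by 2.82 ± 0.41 and 3.57 ± 0.36, and the ligand gene Tgfb1 by 2.57 ± 0.38 and 3.00 ± 0.34. Beside these rises, fibroblast and pericyte markers rose in 16 of 16 genes and macrophage markers in 21 of 21 in both comparisons, and their part was not tested. Of 13 glucocorticoid-responsive genes, the class to which Klf9 belongs, 8 rose in each of the 2 comparisons (medians 1.10 and 1.43) and 0 fell, beside the same shares and medians over all genes. Cebpd rose by 2.87 ± 0.36 and 2.96 ± 0.32, and the receptor gene Nr3c1 by 1.55 ± 0.25 and 2.28 ± 0.23.

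In a list of 16 genes of neurite growth and cell cycle exit tied to Klf6 and Klf7, 6 rose and 4 fell after panobinostat (25.5% and 16.9% of all genes) and 9 rose and 6 fell after the combination (35.9% and 30.1% of all genes), so the falls were near the shares over all genes. Stmn2, a growth cone protein of neurons, fell by 1.87 ± 0.20 (SE, log2; adjusted p = 3.24e-05, limma) after the combination, while the injury-induced factor Atf3 rose by 3.08 ± 0.31 and the cell cycle inhibitor Cdkn1a, a Klf6 target, by 3.27 ± 0.36. Cdkn1a also rose after CBL0137 alone (2.03 ± 0.36, adjusted p = 0.0107). Another cell cycle inhibitor, Cdkn1b, fell by 0.84 ± 0.14 after panobinostat (adjusted p = 0.00137), and the neurotrophin receptor gene Ntrk2 rose by 1.26 ± 0.26 (adjusted p = 0.00382). Of 3 genes known to be repressed by Klf3, the galectin gene Lgals3 rose by 2.06 ± 0.26 after CBL0137 (adjusted p = 0.00185), 2.58 ± 0.29 after panobinostat and 3.79 ± 0.26 after the combination (adjusted p = 6.01e-06), alongside the rise of Klf3 itself in the last 2. Lgals3 is also abundant in macrophages.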

How the data were processed

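RNA was sequenced from 11 flash-frozen tumours, 1 library per mouse, with ribosomal RNA depletion and a stranded kit, per the labels' protocols. STAR, SAMtools, RSEM and the mm10 build are named in the submitters' processing notes; versions and settings are not given in the sources used here. The authors deposited TPM per gene. TPM keep no depth, so precision is that of the spread between mice. The test took genes that reached 1 TPM in 2 or more libraries (15497 of 24411; 27 rows with date-like symbols were named by transcript). One limma 3.58.1 model with a trend (R 4.3.3) fitted 4 group means to log2(TPM + 1), a pseudocount of 1, with 7 residual degrees of freedom. Each contrast was 2-sided, with Benjamini-Hochberg adjustment over all tested genes and a threshold of 0.05. Differences on this scale understate the change of low genes. The model was tested on simulated data. Each group was matched to its libraries by label. Named genes are all KLF genes, up to 3 called genes per pathway list with the lowest adjusted p, and the 3 genes most like each KLF gene; Kdr, Tek, Sp2, Map3k3, Mapk7, Ptgds and overlapping genes were named as list members or neighbours, after their values were seen. The members and lists were chosen with earlier results of these data known. Positions come from GENCODE vM21 and RefSeq (GRCm38.p6). Alternatives were pseudocounts of 0.1 and 5, other filters, TMM factors, quantile normalization, rescaling without histone cluster and small RNA genes, a replicate block, only the groups compared, leaving out each library, and, chosen after seeing the data, leaving out 4 libraries rich in other tissues' markers. TMM factors (trimmed mean of M values) were computed from the method's formula on the TPM, for scaling only. The replicate numbers were checked as pairs. Of 15 same-numbered pairs of libraries, 2 had correlated deviations over 0.1 (-0.26 to 0.19), and they were not treated as paired. With 2 or 3 libraries per group, the deviations are tied to one another. The check therefore cannot exclude a shared litter, day or batch. Of 55 pairs of libraries none held identical values.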

Additional observations from a re-analysis of the deposited data

How the results depend on the processing

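Of 24 KLF calls, 16 held under all 21 alternatives, 17 whenever 1 library was left out and 17 under every scaling and fit. The combination's counts, 7 called against vehicle and 7 against CBL0137, stayed within 1.5 times. CBL0137 against vehicle, 0 called, gave 2 with a pseudocount of 0.1, 1 with a 5 TPM filter, 2 with TMM factors, 1 after rescaling without histone cluster and small RNA genes, 2 with only the groups compared, and 0 to 1 leaving out a library. Panobinostat against vehicle, 6 that rose and 0 that fell, gave 3 and 1 under quantile normalization and 3 to 7 called leaving out a library. The combination against panobinostat, 1, gave 2 under quantile normalization and 0 to 3 leaving out a library; panobinostat against CBL0137, 3, gave 0 with only the groups compared and 0 to 6 leaving out a library. The replicate block gave 0 and 1 in these last 2 comparisons and changed no other KLF count by over 1.5 times. The labels do not say whether the replicate numbers pair the mice. The 4 libraries left out for other tissues' markers were vehicle replicate 2, CBL0137 replicate 3, panobinostat replicate 3 and combination replicate 2. Combination replicate 1 and CBL0137 replicate 2, which held skeletal muscle markers, were kept. Without the 4, the counts were 0 and 7 for CBL0137 and the combination against vehicle, and 7 for the combination against CBL0137. Panobinostat was left with 1 library, so no counts are given for its comparisons. The cause of these changes was not tested, except that leaving out libraries or groups leaves fewer samples.

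Reversed values were all of differences not called. Leaving out 1 library, the lowest and highest values (log2) were -0.28 and 0.19 for Klf7 and -0.087 and 0.27 for Klf11 in CBL0137 against vehicle, -0.051 and 0.75 for Klf7 in panobinostat against vehicle, -0.14 and 0.21 for Klf11 in the combination against vehicle, -0.15 and 0.037 for Klf11 in the combination against CBL0137, -0.071 and 0.21 for Klf9 and -0.16 and 0.25 for Klf13 in the combination against panobinostat, and -0.24 and 0.24 for Klf16 in panobinostat against CBL0137. For the interaction they were -0.50 and 0.46 (Klf2), -0.26 and 0.13 (Klf10) and -0.25 and 0.29 (Klf16). Klf11 in the combination against vehicle was -0.043 with TMM factors, -0.17 under quantile normalization, -0.054 after rescaling and -0.13 without the 4 libraries. In the combination against panobinostat, Klf13 was -0.011 with TMM factors, -0.0011 under quantile normalization, -0.11 after rescaling and -0.15 without the 4 libraries, and Klf9 was -0.045 after rescaling and -0.0018 without the 4. Klf16 in panobinostat against CBL0137 was 0.0031 with a pseudocount of 5, 0.023 after rescaling and 0.25 without the 4. In CBL0137 against vehicle, Klf4 was -0.012 and Klf11 -0.061 without the 4. The interaction of Klf2 was 0.11 with a pseudocount of 5, 0.30 under quantile normalization and 0.65 without the 4; that of Klf10 was 0.044 and 0.059 under the first 2 of these; that of Klf16 was -0.037 with TMM factors, -0.044 under quantile normalization and -0.098 after rescaling.

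TMM factors moved the median of all genes by -0.13 (log2) for the combination against vehicle, and quantile normalization by -0.30 for panobinostat and -0.36 for the combination. The share of rises among called genes went from 60.2 to 38.2% for panobinostat and from 54.4 to 38.4% for the combination against vehicle under quantile normalization, from 58.3 to 42.1% against CBL0137 and 59.2 to 45.1% against panobinostat, and from 64.0 to 46.7% for panobinostat against CBL0137 (52.7% with TMM factors). After rescaling, the combination against panobinostat had 34.2%. All-gene calls ranged, over all alternatives, from 324 to 1333 (949 as reported) for CBL0137 against vehicle, 345 to 3366 (1634) for the combination against panobinostat, 0 to 4022 (2935) for panobinostat against CBL0137, 4049 to 7174 (6572) for panobinostat against vehicle and 0 to 44 (0) for the interaction. With TPM only, what depth limits cannot be told, and changes of genes near 1 TPM, such as Klf4 in vehicle, are the least certain.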
